A study of Rattus norvegicus with 60 samples.

Results

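Glucose, glycogen and lactate metabolism was followed through 33 listed genes in the spinal cord of rats with and without a contusion injury and with and without methylprednisolone (MP), a synthetic glucocorticoid. The members are the transporters that carry glucose and lactate across the membrane, the enzymes of glycolysis with their regulators, and the enzymes that build and break glycogen. They were chosen by name, and each was matched to the array rows whose single gene symbol equals it. A row was found for 31 of the 33 members, among 14324 genes measured, and Hk1 and Ppp1r3c had none. Gapdh had 16 rows, Eno1 and Pkm had 3 each, Ldha had 2 and every other member had 1, and the rows of a gene were averaged.

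RNA came from 60 female Long Evans rats aged 8 or 9 weeks, each on its own array. Every group held 2 rats at each time. All rats received an intravenous injection in 70% ethanol, so that ethanol was common to treated and control animals. The S-EtOH group was uninjured and received the vehicle, S-MP was uninjured and received MP at 30 mg/kg, SCI-EtOH was injured and received the vehicle, and SCI-MP was injured and received MP at 30 mg/kg. The injury was a weight dropped on the exposed thoracic cord, and the tissue was a 5 mm segment holding the lesion. In every group tissue was taken at 7 times after the medication, from 2, 4 and 6 h (the phase 2~6 h) over 8 and 12 h (8~12 h) to 24 and then 48 h (24~48 h), and both vehicle groups were also sampled at 0 h. The S-EtOH and SCI-EtOH groups therefore hold 16 rats each and the MP groups 14 each. The deposited values are log2 values that the authors centred per row, so that a value says how high a gene stood in a rat relative to the other rats and gives no level that can be set against another gene.

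Glycolysis splits glucose into pyruvate and gains ATP without oxygen, and lactate dehydrogenase turns the pyruvate into lactate when it is not passed to the mitochondria. In the nervous system the pathway is divided among cells: neurons and astrocytes express different isoforms of the same enzymes, and glycogen is stored mainly in astrocytes. Leukocytes that enter injured tissue rely strongly on glycolysis. The isoforms they express include, without being theirs alone, the liver type of glycogen phosphorylase and the lactate exporter encoded by Slc16a3.

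Some arrays stood apart. The rats of the SCI-EtOH group at 6 h correlated with each other at 0.161 over all rows, the lowest of the 30 pairs. On the third principal component of all rows kept, with 8.26% of the variance, the SCI-EtOH arrays lay between −31.9 and −4.02, those at 0 h included, and the SCI-MP arrays between 3.68 and 26.8, while both sham groups lay between −3.62 and 12.3. No MP rat was taken at 0 h, and a shift common to the SCI-EtOH arrays cannot be told apart from an effect of MP in injured rats. Cell type markers moved with injury. Over 7 times, 10 of 10 neuron markers and 8 of 8 astrocyte markers were lower in SCI-EtOH than in sham vehicle rats, 8 of 9 neutrophil markers, 7 of 8 macrophage and monocyte markers, 6 of 6 endothelial and 4 of 4 erythrocyte markers were higher, and of the oligodendrocyte markers 6 of 8 were lower and 1 was higher. Of the microglia markers 2 of 8 were higher, and of the skeletal muscle markers 4 of 7 were lower. These counts are to be read beside all genes, of which 35.1% were higher and 27.5% lower in this comparison. The mean log2 value of the neuron list ranged from 0.094 to 0.39 in S-EtOH and from −2.42 to −0.30 in SCI-EtOH, and that of the neutrophil list from −0.38 to 0.18 and from −0.13 to 2.45. In such bulk tissue, fewer cells of a type and less RNA per cell cannot be told apart, and the part of these cell types in the results below was not tested. As the values are centred, they do not show whether any marker was absent.

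**Figure D1:**
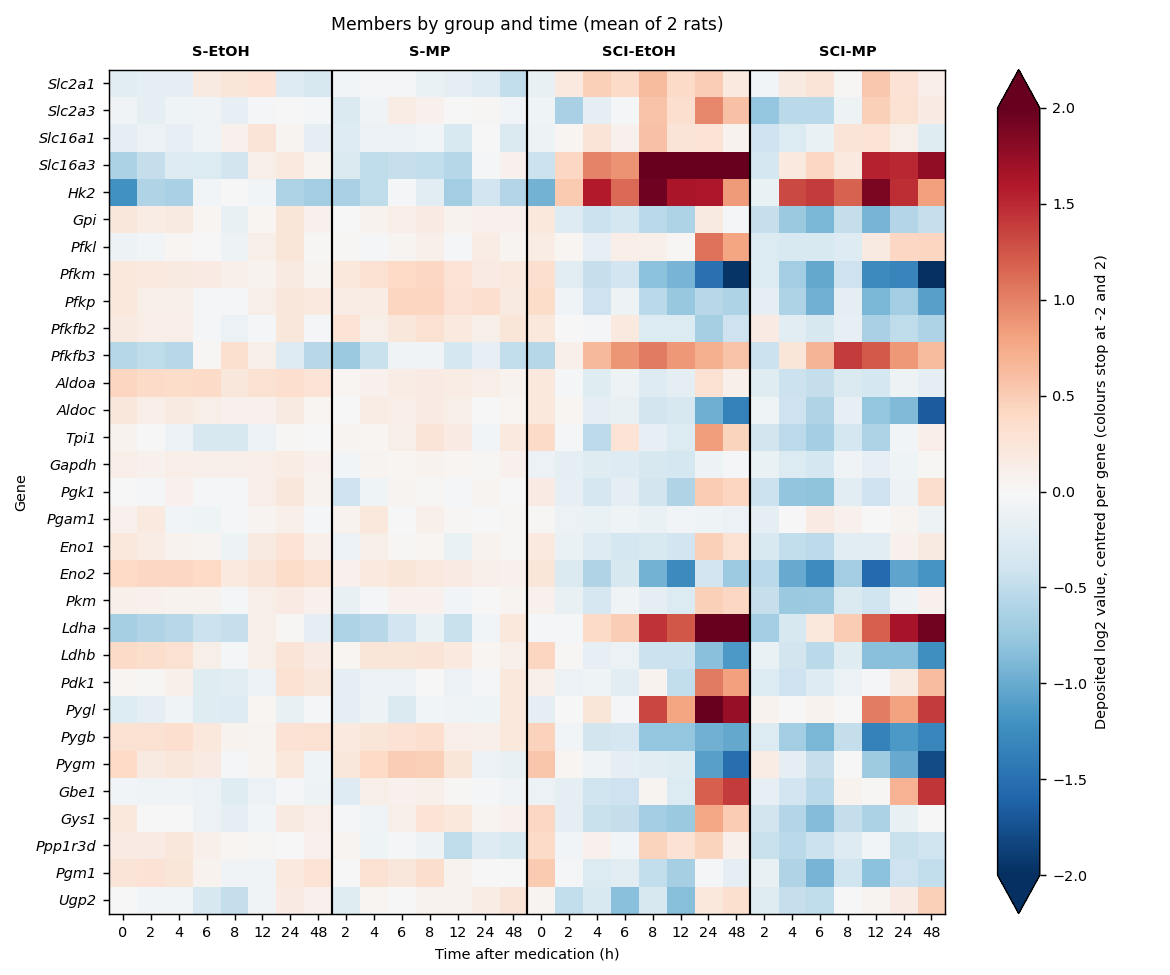
Mean log2 value of the 2 rats of each group and time for the 31 members, by role from the transporters at the top to glycogen at the bottom. Red stands for a value above and blue for one below the centre of that gene, and the colour ends at −2 and 2. Slc16a3, Hk2, Ldha and Pygl turn red in both injured groups while Pfkm, Eno2, Pygb and Ldhb turn blue.

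The first comparison asked which members the injury moved in rats given the vehicle. Over the mean of 7 times, 11 members were higher and 17 lower in injured than in sham vehicle rats, and 3 did not pass the test (limma, adjusted p at 0.05 over all genes). That is 90.3% of the members beside 62.7% of all genes called, of which 35.1% were higher and 27.5% lower. The median of the absolute log2 difference was 0.38 over the members and 0.15 over all genes. All 4 transporters rose. Among the enzymes of upper glycolysis 3 rose and 6 fell, in lower glycolysis 1 rose and 6 fell, of the 3 genes of lactate and pyruvate 1 rose and 1 fell, and of the 8 glycogen genes 2 rose and 4 fell. With the difference already present at 0 h subtracted, 12 members passed: Slc16a3, Hk2, Pfkfb3, Ldha and Pygl higher, and Pfkm, Pfkp, Aldoc, Eno2, Ldhb, Pygb and Pgm1 lower. In that setting the variation of the 4 arrays at 0 h enters every difference, and 12.4% of all genes passed. Without the 6 h arrays 11 were higher and 15 lower, beside 62.5% of all genes called. Tpi1 (adjusted p = 0.0657), Pgk1 (0.0672) and Pkm (0.054) then no longer passed, and Pdk1 did, as higher (0.15, adjusted p = 0.0342, limma).

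**Figure D2:**
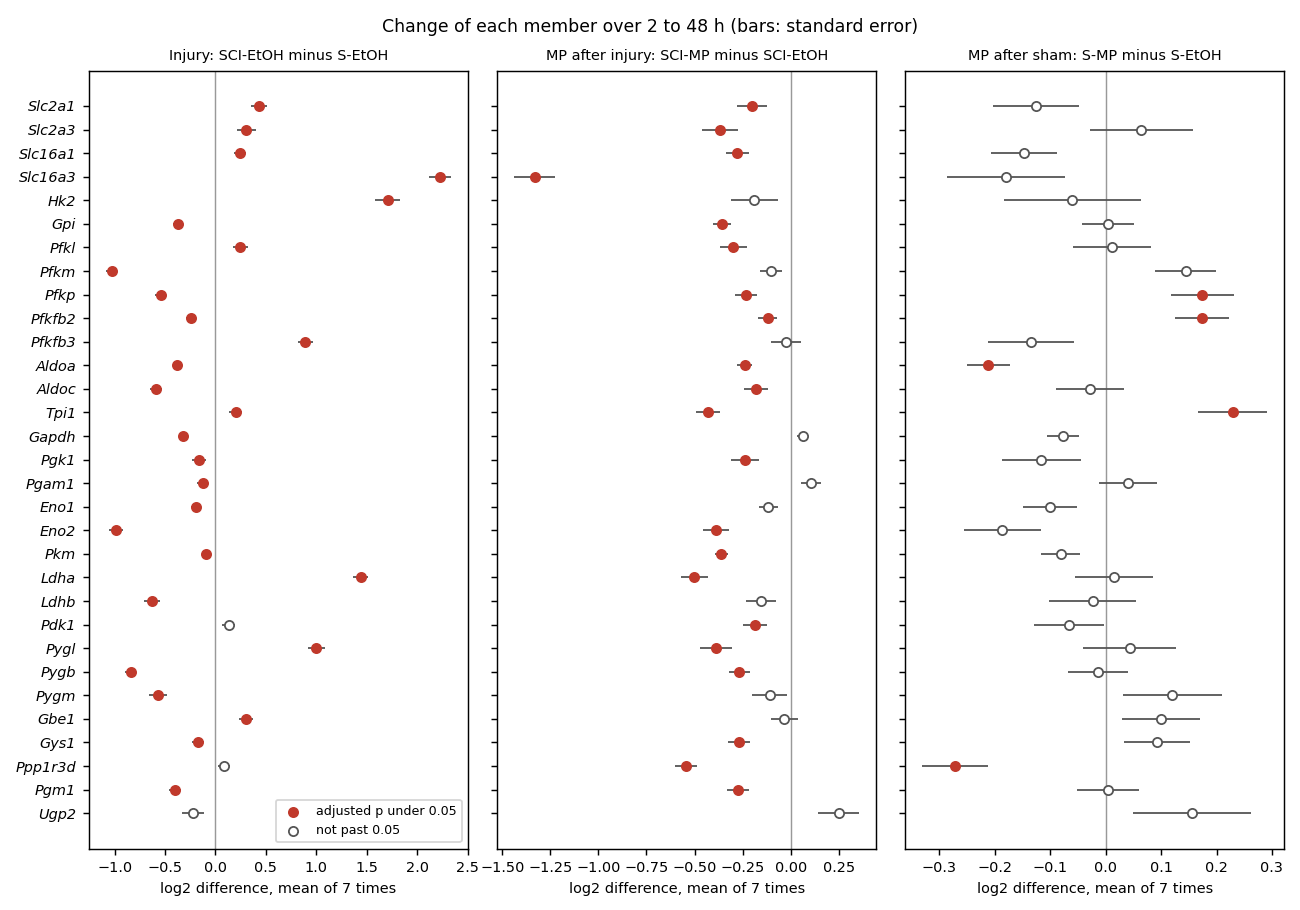
Log2 difference over the mean of 7 times for each member, with its standard error, for injury in vehicle rats (left), MP in injured rats (middle) and MP in sham rats (right). Filled red points passed an adjusted p of 0.05 and open points did not, and the horizontal scales differ. Injury moved members both ways, MP in injured rats moved those it changed downward, and MP in sham rats moved 5.

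Slc16a3, which encodes the lactate exporter MCT4, rose most of all members. Its log2 values were −0.55, −0.13 and 0.39 (lowest, median and highest) in the 14 S-EtOH rats taken from 2 h onward, and −0.0023, 2.45 and 3.78 in the 14 SCI-EtOH rats. The ranges overlapped only through 1 SCI-EtOH rat at 2 h, and at 7 of 7 times both SCI-EtOH rats lay above both S-EtOH rats. The log2 difference was 2.23 (SE 0.11, adjusted p = 4.83e-18), or 4.68-fold. It went from 0.90 at 2 h to 3.40 at 24 h, where the SCI-EtOH rats stood at 3.41 and 3.78 and the S-EtOH rats at 0.0023 and 0.39. Slc16a1, which encodes the broadly expressed lactate carrier MCT1, had a log2 difference of 0.24 (SE 0.060, adjusted p = 0.000821). Slc2a1, the glucose transporter of the blood-brain barrier and of glia, had one of 0.43 (SE 0.078, adjusted p = 1.18e-05), and both SCI-EtOH rats lay above both shams at 4 of 7 times. Slc2a3, the glucose transporter of neurons, had values of −0.27, −0.064 and 0.015 in S-EtOH and −0.68, 0.14 and 1.08 in SCI-EtOH, so the injured rats reached both below and above the shams. Its difference was 0.31 (SE 0.093, adjusted p = 0.00473) over 7 times, with −0.47 at 2 h and 0.97 at 24 h.

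In upper glycolysis the members that rose were Hk2, Pfkfb3 and Pfkl. Hk2 encodes the inducible hexokinase that commits glucose to the cell. Its log2 values were −1.12, −0.35 and 0.18 in S-EtOH and 0.45, 1.48 and 2.63 in SCI-EtOH, and the groups did not overlap. The difference was 1.71 (SE 0.12, adjusted p = 5.99e-14), or 3.27-fold, and it was at 1.13 at 2 h and 2.24 at 4 h, its highest. Pfkfb3, whose product makes the strongest allosteric activator of phosphofructokinase, had values of −0.71, −0.26 and 0.38 in S-EtOH and 0.010, 0.74 and 1.30 in SCI-EtOH, with both injured rats above both shams at 7 of 7 times. Its difference was 0.89 (SE 0.078, adjusted p = 5.55e-12). The liver type of phosphofructokinase, Pfkl, had a difference of 0.25 (SE 0.070, adjusted p = 0.00267), at 0.0090 over 2~6 h and 0.80 over 24~48 h, and after quantile normalization it no longer passed.

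Both other phosphofructokinases fell. Pfkm, the muscle type, had log2 values of −0.033, 0.13 and 0.27 in S-EtOH and −2.06, −0.79 and −0.18 in SCI-EtOH, without overlap between the groups. Its difference was −1.03 (SE 0.056, adjusted p = 5.94e-17), the largest fall among the members, and it deepened from −0.42 at 2 h to −2.01 at 48 h. Pfkp, the platelet type and the main form in brain, had a difference of −0.54 (SE 0.056, adjusted p = 3.12e-10). Gpi, which converts glucose 6-phosphate to fructose 6-phosphate, had one of −0.38 (SE 0.047, adjusted p = 1.53e-08), and Pfkfb2, the heart type of the enzyme pair that Pfkfb3 belongs to, one of −0.25 (SE 0.048, adjusted p = 4.85e-05). Of the aldolases, which split the 6-carbon sugar, the astrocyte form Aldoc changed by −0.59 (SE 0.062, adjusted p = 3.62e-10) and the general form Aldoa by −0.38 (SE 0.039, adjusted p = 1.84e-10).

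In lower glycolysis the neuronal enolase Eno2 stood out by size. Its log2 values were 0.13, 0.35 and 0.45 in S-EtOH and −1.31, −0.52 and −0.15 in SCI-EtOH, and no injured rat reached the lowest sham. The difference was −0.99 (SE 0.069, adjusted p = 2.95e-14). The general enolase Eno1 changed by −0.19 (SE 0.049), Gapdh by −0.33 (SE 0.029), and Pkm, the pyruvate kinase that ends the pathway, by −0.10 (SE 0.036). The falls of Gapdh, Eno1 and Pkm had adjusted p-values of 1.11e-11, 0.000897 and 0.019 (limma). The 16 rows of Gapdh lay between −0.46 and −0.19 for this difference, all on the same side of 0. Tpi1, triosephosphate isomerase, was the member of this group that rose, by 0.20 (SE 0.062, adjusted p = 0.00577), and with the 0 h difference subtracted it stood at −0.11. Pgk1 and Pgam1, the kinase and the mutase of the 3-carbon steps, fell by a small margin, with differences of −0.16 (SE 0.071, adjusted p = 0.0458) and −0.13 (SE 0.052, adjusted p = 0.0359). Leaving out a single rat took the call from Pgk1 in 19 cases, from Pgam1 in 11 and from Pkm in 2, and the highest adjusted p-values then were 0.152, 0.0952 and 0.0635.

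RNA of the lactate dehydrogenase subunits moved in opposite directions, and the protein was not measured. Ldha encodes the subunit that favours the making of lactate, and Ldhb the one that favours its use. The log2 values of Ldha were −0.62, −0.38 and 0.21 in S-EtOH and −0.027, 1.16 and 2.35 in SCI-EtOH, with both injured rats above both shams at 7 of 7 times. The difference was 1.44 (SE 0.071, adjusted p = 8.25e-18), or 2.71-fold, and the 2 rows of the gene gave 1.14 and 1.74. At 0 h the SCI-EtOH rats stood at −0.032 and −0.023 and the S-EtOH rats at −0.68 and −0.65. Their difference of 0.64 did not pass the test (adjusted p = 0.148, limma), and with it subtracted Ldha was still higher by 0.80 (adjusted p = 0.00669, limma). Ldhb had values of −0.090, 0.24 and 0.37 in S-EtOH and −1.35, −0.40 and 0.24 in SCI-EtOH, and its difference was −0.63 (SE 0.078, adjusted p = 1.69e-08). Pdk1, a kinase that holds back pyruvate dehydrogenase and so the entry of pyruvate into the mitochondria, did not pass over 7 times (0.13, SE 0.063, adjusted p = 0.068, limma).

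Among the glycogen genes the 3 phosphorylases, which release glucose from glycogen, went different ways. Pygl, the liver type, had log2 values of −0.28, −0.10 and 0.060 in S-EtOH and −0.16, 0.71 and 2.08 in SCI-EtOH. The injured rats overlapped the range of the shams at 2 h and 6 h and were above all of them at 4 h and from 8 h onward. Its difference was 1.0 (SE 0.084, adjusted p = 2.53e-12). Pygb, the brain type, had values of 0.0075, 0.26 and 0.41 and −1.14, −0.76 and 0.039, and both injured rats lay below both shams at 7 of 7 times. It changed by −0.84 (SE 0.054, adjusted p = 3.09e-15), and Pygm, the muscle type that astrocytes also express, by −0.57 (SE 0.089, adjusted p = 1.34e-06). Gbe1, which puts the branches into glycogen, rose by 0.30 (SE 0.070, adjusted p = 0.000396), while glycogen synthase Gys1 changed by −0.17 (SE 0.059, adjusted p = 0.0119) and phosphoglucomutase Pgm1, which links glycogen to glycolysis, by −0.40 (SE 0.056, adjusted p = 1.66e-07). Ugp2, which makes the UDP-glucose that glycogen is built from, and Ppp1r3d, a subunit that brings protein phosphatase to glycogen, did not pass, with differences of −0.22 (SE 0.11, adjusted p = 0.0659) and 0.085 (SE 0.059, adjusted p = 0.208).

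The injury effect differed between the early and the late times. At 2~6 h, 6 members were higher and 13 lower, beside 35.1% of all genes called (18.4% higher and 16.7% lower). At 8~12 h, 7 were higher and 14 lower, beside 39% of all genes (18.5% higher and 20.5% lower). At 24~48 h, 14 were higher and 10 lower, beside 47.6% of all genes (25.4% higher and 22.2% lower), and after quantile normalization 10 were higher and 11 lower, beside 39.9%. With the 0 h difference subtracted, 0 were higher and 2 lower over 2~6 h (1.16% of all genes called), 5 higher and 8 lower over 8~12 h (12.4%) and 9 higher and 9 lower over 24~48 h (24.9%), so that all calls of a rise over 2~6 h named below were lost in that setting. The difference of the effect between 24~48 h and 2~6 h passed for 22 members beside 31.4% of all genes, with 15 shifted upward and 7 downward (16.7% and 14.8% of all genes). Those shifted upward were Slc2a3, Slc16a3, Gpi, Pfkl, Aldoa, Tpi1, Pgk1, Eno1, Pkm, Ldha, Pdk1, Pygl, Gbe1, Gys1 and Ppp1r3d, and those shifted downward were Pfkm, Pfkp, Pfkfb2, Aldoc, Ldhb, Pygb and Pygm. Under quantile normalization 11 members, 7 upward and 4 downward, passed this test, beside 12.6% of all genes. Slc16a3 and Ldha were not among the 11, with shifts of 0.38 and 0.24 in place of 1.99 and 1.50.

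**Figure D3:**
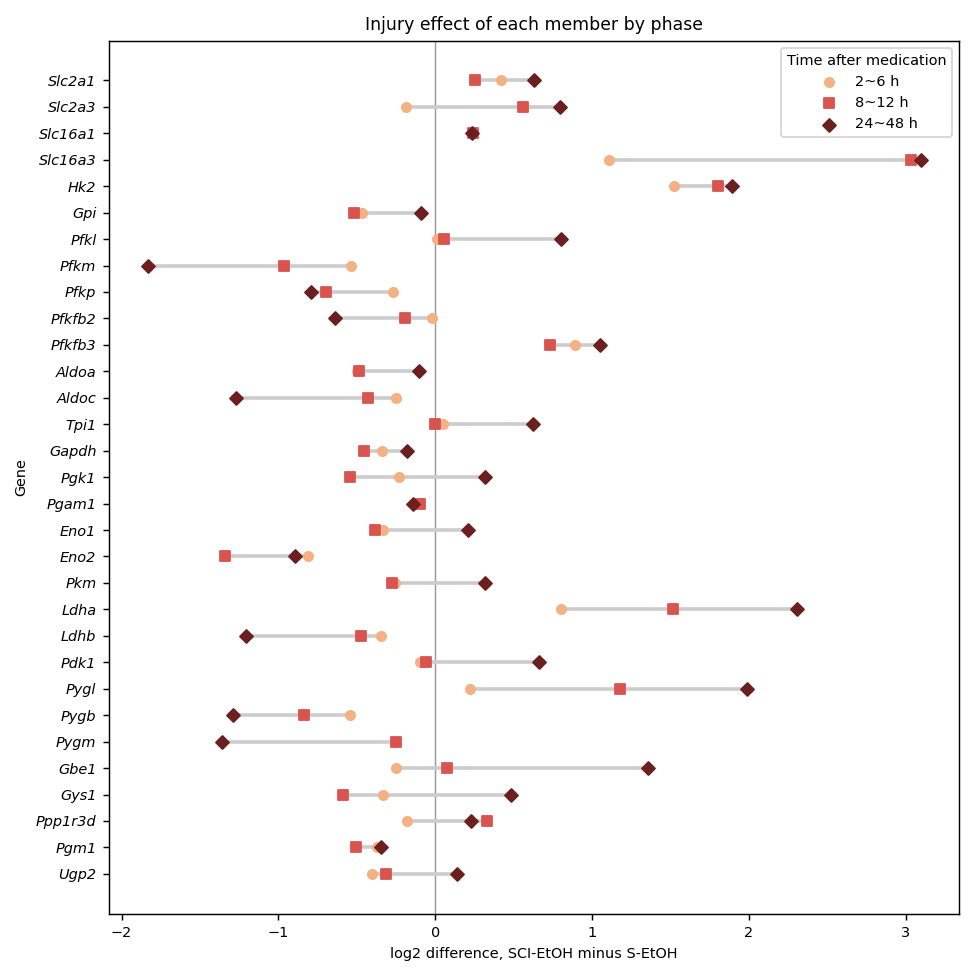
Injury effect of each member, as the log2 difference of SCI-EtOH minus S-EtOH, over 2~6 h, 8~12 h and 24~48 h after medication. Grey bars join the lowest and highest of the 3 phases, and markers that coincide hide each other. Slc16a3, Pygl, Gbe1 and Ldha lie furthest to the right of their early value at 24~48 h, and Pfkm, Pygm and Aldoc furthest to the left.

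After Slc16a3 and Pygl, the largest shift upward was that of Gbe1, at 1.60 (SE 0.17, adjusted p = 2.08e-08). It was not called at 2~6 h (−0.25) or at 8~12 h (0.073), and at 24~48 h it was higher by 1.36 (SE 0.13, adjusted p = 1.25e-10). At 48 h the SCI-EtOH rats stood at 1.35 and 1.45 and the S-EtOH rats at −0.10 and −0.093. Glycogen synthase passed the test in both directions: Gys1 was lower over 2~6 h, at −0.33 (SE 0.090, adjusted p = 0.00461), and over 8~12 h, at −0.59 (SE 0.11, adjusted p = 5.71e-05), and rose by 0.48 (SE 0.11, adjusted p = 0.000391) over 24~48 h. Pkm showed the same course with smaller values, from −0.26 (SE 0.055, adjusted p = 0.000426) over 2~6 h to 0.32 (SE 0.067, adjusted p = 0.000136) over 24~48 h. Pgk1 went from −0.54 (SE 0.13, adjusted p = 0.00146) over 8~12 h to 0.32 (SE 0.13, adjusted p = 0.0475) over 24~48 h. Without the first SCI-EtOH rat at 48 h the change of the Pgk1 effect between the phases no longer passed (adjusted p = 0.102, limma). The change of Ppp1r3d was lost without any 1 of 4 rats (adjusted p up to 0.0788, limma). Pdk1 was not called before 24 h and rose by 0.66 (SE 0.12, adjusted p = 1.3e-05) over 24~48 h. Hk2 and Pfkfb3 were already higher over 2~6 h, by 1.52 (SE 0.19, adjusted p = 1.92e-07) and 0.89 (SE 0.12, adjusted p = 6.09e-07), and their shift between the phases did not pass the test (0.37 with SE 0.30, and 0.16 with SE 0.19).

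**Figure D4:**
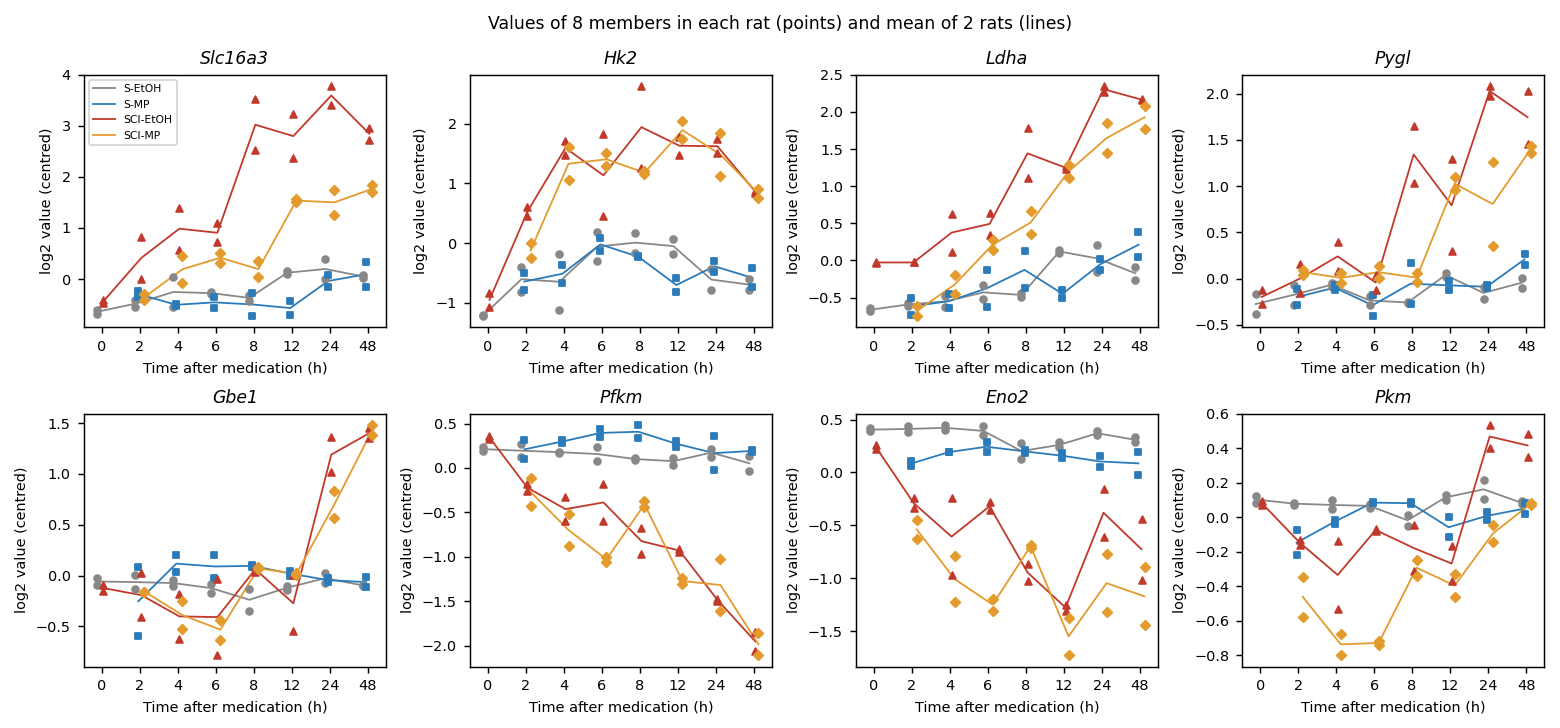
Log2 values of 8 members in every rat against the time after medication, with points for rats and lines for the mean of the 2 rats of a group. The times are evenly spaced on the axis and not to scale, and no MP rat was taken at 0 h. Slc16a3 of SCI-MP rats (orange) lies below that of SCI-EtOH rats (red) from 2 h to 48 h, while the lines of Hk2 and Pfkm cross.

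Isoforms of 1 enzyme were compared as the log2 ratio of both genes within each array, which a shift common to all genes of an array does not touch. Of the 14 pairs of members within a family, 12 could be measured. The test was an exact two-sided permutation test that exchanged arrays within each time, over 279936 arrangements, with Benjamini-Hochberg adjustment over 36 tests. Its smallest possible p is 7.14e-06. Ratios of other gene pairs were not tested, so the counts of ratios here and below have no background share. After injury, where 62.7% of all genes were called in limma, 10 of the 12 ratios differed. The largest was Ldha over Ldhb, with values of −0.98, −0.45 and 0.043 (lowest, median and highest) in S-EtOH and −0.16, 1.46 and 3.51 in SCI-EtOH. Its log2 difference was 2.07 (exact p = 7.14e-06, adjusted p = 3.67e-05, with the exact p the smallest the test can give), and both injured rats lay above both shams at 7 of 7 times. It went from 1.15 over 2~6 h to 1.99 over 8~12 h and 3.51 over 24~48 h, and it was 0.59 at 0 h. The ratios were not run after quantile normalization, so whether this growth holds there was not tested. For the single genes, the shift of the injury effect from 2~6 h to 24~48 h depended on that scaling. It was 1.50 for Ldha and −0.86 for Ldhb in the main fit. After quantile normalization it was 0.24 and −0.37, and neither passed (adjusted p = 0.437 and 0.122, limma).

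The ratio of Slc16a1 to Slc16a3 was lower after injury, at a log2 difference of −1.99, also with the smallest p the test allows, as did those named next without a p. Its values were −0.24, 0.20 and 0.53 in S-EtOH and −3.61, −2.15 and −0.069 in SCI-EtOH. The liver type of glycogen phosphorylase gained on the brain type by 1.84 and on the muscle type by 1.57. Likewise Pfkl gained on Pfkm by 1.28, Eno1 on Eno2 by 0.79, and Pfkfb3 on Pfkfb2, whose ratio of Pfkfb2 to Pfkfb3 changed by −1.14. Pfkl gained on Pfkp by 0.79 (exact p = 7.14e-05, adjusted p = 0.000286, permutation test), the ratio of Pfkm to Pfkp changed by −0.49 (exact p = 2.86e-05, adjusted p = 0.000129, permutation test), and that of Pygb to Pygm by −0.27 (exact p = 0.00604, adjusted p = 0.0167, permutation test). Without the second SCI-EtOH rat at 48 h the last of these no longer passed, at an adjusted p of 0.0651. The ratios of Slc2a1 to Slc2a3 and of Aldoa to Aldoc did not pass over 7 times, with differences of 0.13 and 0.21. That of Aldoa to Aldoc was −0.25 over 2~6 h and 1.17 over 24~48 h.

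**Figure D5:**
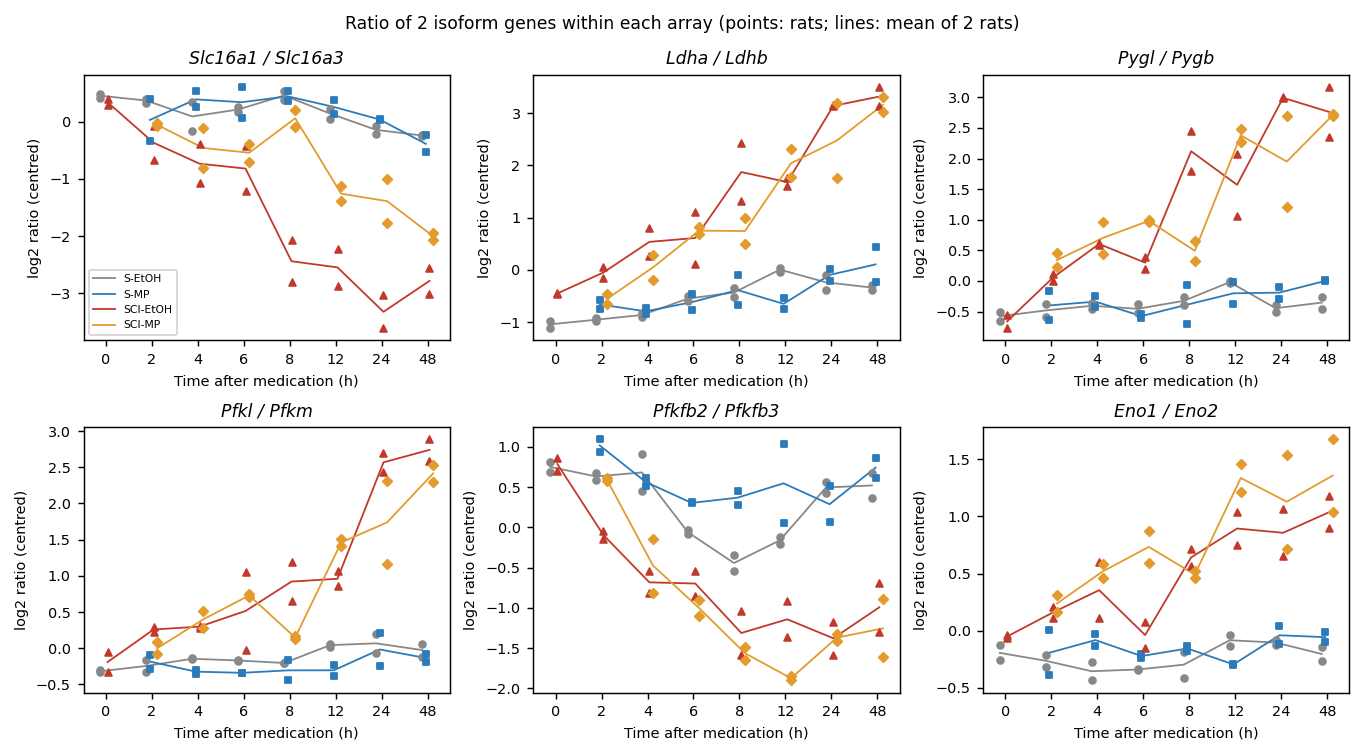
Log2 ratio of 6 isoform pairs within each array against the time after medication, with points for rats and lines for the mean of 2 rats. The times are evenly spaced and not to scale, and a ratio of centred values has no meaning at 0 itself. At each time from 12 h onward all injured rats lie on the same side of all sham rats in every panel.

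The promoters of the members were searched for short motifs of known regulators. RefSeq windows on GRCr8 from 250 bases before to 50 after the start site were given for 29 of the 31 measured members, in 32 windows, and Slc2a3 and Pgk1 had none. The motif ACGTG is a core sequence read by the hypoxia-inducible factors, and it also lies inside the E-box CACGTG read by other factors. It was found on either strand in 19 of the 29 genes, or 19 of their 32 windows, and in 19.3% of all 33469 windows. It was held by 6 of the 10 genes that rose after injury and 11 of the 16 that fell. The second core form, GCGTG, was in 15 of 29 genes (16 of 32 windows) and in 29.7% of all windows. The palindrome to which the glucocorticoid receptor binds, AGAACA and TGTTCT with 3 bases of any kind between them, was in 0 of the members' 32 windows and in 5 of all windows (0.0149%). So rare a sequence would be missing from nearly any 32 windows, and the 0 says nothing about the members. The windows were not matched for base composition in any of these counts. A match is no evidence that a factor binds, and a window without one says only that these letters are not in it. Shown are 3 genes that rose and 3 that fell after injury, picked because they hold a match, each by the 60 bases around the first one before the start site. Slc16a3 and Hk2, the members that rose most, hold neither core form and are shown by the 60 bases next to their start sites. The sequences run 5′ to 3′ on the strand of the gene, and capitals mark ACGTG or its reverse complement CACGT, which merge to CACGTG where they overlap. The bases are chr1:106507977-106508036 (plus strand) for Ldha, chr17:71944863-71944922 (plus) for Pfkfb3, chr6:94476402-94476461 (minus) for Pygl, chr4:159267328-159267387 (minus) for Eno2, chr7:131113939-131113998 (plus) for Pfkm, chr3:160072012-160072071 (plus) for Pygb, chr10:106712268-106712327 (plus) for Slc16a3 and chr4:116841276-116841335 (minus) for Hk2.
Ldha: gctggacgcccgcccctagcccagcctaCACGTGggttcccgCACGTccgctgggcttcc
Pfkfb3: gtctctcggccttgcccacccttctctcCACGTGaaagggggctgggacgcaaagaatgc
Pygl: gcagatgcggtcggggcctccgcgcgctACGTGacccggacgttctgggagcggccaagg
Eno2: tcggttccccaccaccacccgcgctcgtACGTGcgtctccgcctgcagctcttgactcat
Pfkm: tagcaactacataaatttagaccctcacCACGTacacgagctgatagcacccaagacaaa
Pygb: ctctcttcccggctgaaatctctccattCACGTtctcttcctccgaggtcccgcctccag
Slc16a3: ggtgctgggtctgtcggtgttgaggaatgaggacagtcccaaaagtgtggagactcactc
Hk2: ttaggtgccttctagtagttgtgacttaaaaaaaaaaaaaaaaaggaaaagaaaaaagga

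The second comparison asked what MP did in injured rats. Over 7 times, 21 of the 31 members were lower in SCI-MP than in SCI-EtOH and 0 were higher, beside 42.1% of all genes called, 31.7% lower and 10.4% higher. With array medians set to 0, Gapdh (0.080, adjusted p = 0.042) and Pgam1 (0.12, adjusted p = 0.0495) passed as higher and 19 members as lower, beside 39.3% of all genes called. Without the 6 h arrays, Gapdh (0.087, adjusted p = 0.0185) and Ugp2 (0.24, adjusted p = 0.0189) passed as higher and 17 members as lower, beside 40.7% of all genes called. Pfkp, Pfkfb2, Aldoc and Pgk1 were no longer among the members that passed. The median log2 difference was −0.24 over the members and −0.056 over all genes. All 4 transporters, 6 of 9 genes of upper glycolysis, 4 of 7 of lower glycolysis, Ldha, Pdk1 and 5 of 8 glycogen genes were among the 21. This comparison shares the SCI-EtOH rats with that of injury, so a deviation of these rats enters both with opposite sign. With the difference between SCI-EtOH and S-EtOH at 0 h subtracted from the SCI-EtOH values, 0 of 31 members passed (limma, and 0.0559% of all genes), 20 of the 21 stayed below 0, and their median went from −0.28 to −0.13. This setting takes the 0 h difference as a trait of the SCI-EtOH arrays alone. The SCI-EtOH rats at 0 h were already injured, and an early response to injury shared by SCI-MP rats would be subtracted wrongly. Whether they shared it was not tested. Neutrophil markers were lower in SCI-MP for 7 of 9 (list mean −0.13 to 2.45 in SCI-EtOH and −0.22 to 1.98 in SCI-MP), macrophage and monocyte markers for 5 of 8 (−0.22 to 1.62 and −0.33 to 1.30), and skeletal muscle markers were higher for 5 of 7 (−0.34 to 0.24 and −0.080 to 0.55). Of the other lists, 2 of 8 microglia, 2 of 6 endothelial, 2 of 4 erythrocyte and 1 of 8 astrocyte markers were lower, while 2 of 10 neuron markers were higher and 1 lower and 3 of 8 oligodendrocyte markers were higher and 2 lower. Their part in the result was not tested.

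Slc16a3 again had the largest difference. Its log2 values in the SCI-MP rats were −0.42, 0.48 and 1.83, beside a median of 2.45 in SCI-EtOH, and at 7 of 7 times both SCI-MP rats lay below both SCI-EtOH rats. The difference was −1.33 (SE 0.11, adjusted p = 3.72e-11), and it was widest at 8 h, at −2.83. At that time the SCI-EtOH rats stood at 3.52 and 2.52, the SCI-MP rats at 0.35 and 0.035 and the S-EtOH rats at −0.31 and −0.43. With the 0 h difference subtracted it was −1.13 (adjusted p = 0.258, limma). The ratio of Slc16a1 to Slc16a3 differed too, by 1.05 (exact p = 0.000186, adjusted p = 0.000669, permutation test), and Slc16a1 itself changed by −0.28 (SE 0.060, adjusted p = 0.000336).

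Ppp1r3d, which injury had raised over 8~12 h (0.33 (SE 0.11, adjusted p = 0.0156)) but not over the mean of 7 times, had log2 values of −0.14, 0.12 and 0.64 in SCI-EtOH and −0.66, −0.37 and 0.037 in SCI-MP, and both SCI-MP rats lay below both SCI-EtOH rats at 7 of 7 times. Its difference was −0.54 (SE 0.059, adjusted p = 9.28e-09). Ldha was lower, at −0.50 (SE 0.071, adjusted p = 9.35e-07), and its 2 rows gave −0.72 and −0.28. With the 0 h difference subtracted, Ldha stood at 0.14 (adjusted p = 0.971, limma). That sign holds only if the 0 h difference of the SCI-EtOH rats was absent from SCI-MP rats. Tpi1 changed by −0.43 (SE 0.062, adjusted p = 1.45e-06), Eno2 by −0.39 (SE 0.069, adjusted p = 3.46e-05), Pygl by −0.39 (SE 0.084, adjusted p = 0.000402), Slc2a3 by −0.37 (SE 0.093, adjusted p = 0.00186) and Pkm by −0.36 (SE 0.036, adjusted p = 2.2e-09). Pkm was lower in both SCI-MP rats than in both SCI-EtOH rats at 5 of 7 times, and at 6 h the SCI-MP rats stood at −0.72 and −0.74 and the SCI-EtOH rats at −0.065 and −0.082. The other 12 called members had log2 differences between −0.36 (Gpi) and −0.12 (Pfkfb2). Leaving out a single rat took the call from Pfkfb2 in 34 cases, from Slc2a1 in 13 and from Aldoc in 2, and quantile normalization took it from these 3 and from Pdk1. With only the injured groups in the fit 16 members passed, beside 28% of all genes. Slc2a1, Pfkfb2, Aldoc, Pgk1 and Pdk1 then lost the call. With array weights 18 passed, beside 29.4%.

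The members without a call included several that injury had moved strongly. Hk2 had a log2 difference of −0.19 (SE 0.12), with values of 0.45, 1.48 and 2.63 in SCI-EtOH and −0.25, 1.18 and 2.04 in SCI-MP that overlapped over most of their range. Pfkm, at −0.10 (SE 0.056), Pfkfb3, at −0.026 (SE 0.078), Ldhb, at −0.15 (SE 0.078), Pygm, at −0.11 (SE 0.089), and Gbe1, at −0.033 (SE 0.070), did not pass either. Of the isoform ratios, that of Eno1 to Eno2 differed by 0.27 (exact p = 0.0169, adjusted p = 0.0358, permutation test) and that of Pfkm to Pfkp by 0.13 (exact p = 0.0199, adjusted p = 0.0398, permutation test), but both calls were lost without the 6 h arrays and without single rats. Leaving out any 1 of 8 rats left only the ratio of Slc16a1 to Slc16a3, namely the first SCI-EtOH rats at 4 h, 6 h and 48 h, the second at 12 h and 24 h, the second SCI-MP rat at 6 h and the first at 24 h and 48 h. The ratio of Ldha to Ldhb had a difference of −0.35 (exact p = 0.0609, adjusted p = 0.115, permutation test).

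By phase, 18 members were lower and 0 higher over 2~6 h, beside 26.6% of all genes called (22.9% lower and 3.71% higher). Over 8~12 h 4 were lower and 2 higher, beside 17.7% of all genes (10.8% lower and 6.95% higher). Over 24~48 h 15 were lower and 0 higher, beside 13.9% of all genes (10.6% lower and 3.27% higher). With the 0 h difference subtracted, 0, 1 and 0 members passed over the 3 phases (0.126%, 0.328% and 0.0559% of all genes), so that nearly all calls by phase were lost. The 4 lower over 8~12 h were Slc16a3, at −2.05 (SE 0.20, adjusted p = 2.19e-08), Pygl, at −0.55 (SE 0.16, adjusted p = 0.0138), Ldha, at −0.49 (SE 0.13, adjusted p = 0.00865), and Ppp1r3d, at −0.53 (SE 0.11, adjusted p = 0.00101). Higher in that phase were Gapdh, at 0.22 (SE 0.055, adjusted p = 0.00508), and Ugp2, at 0.60 (SE 0.20, adjusted p = 0.0306). Without the first SCI-MP rat at 8 h, 3 members passed over 8~12 h, and after quantile normalization 2, both lower, beside 6.79% of all genes. Over 24~48 h the largest falls were those of Slc16a3, at −1.59 (SE 0.20, adjusted p = 2.32e-06), Pygl, at −0.79 (SE 0.16, adjusted p = 0.000808), and Gys1, at −0.72 (SE 0.11, adjusted p = 3.44e-05). At 24 h Gys1 stood at 0.64 and 0.92 in SCI-EtOH and at −0.040 and −0.26 in SCI-MP, while the S-EtOH rats stood at 0.12 and 0.23. After quantile normalization 3 members passed over 24~48 h, beside 0.168% of all genes, and without the 6 h arrays 8 passed over 2~6 h, beside 18.7%.

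The third comparison asked what MP did without injury. Over 7 times, 3 members were higher and 2 lower in S-MP than in S-EtOH, which is 16.1% of the members beside 9.85% of all genes called (5.63% higher and 4.22% lower). Aldoa had log2 values of 0.20, 0.32 and 0.46 in S-EtOH and −0.0018, 0.11 and 0.22 in S-MP, and both S-MP rats lay below both S-EtOH rats at 7 of 7 times. Its difference was −0.21 (SE 0.039, adjusted p = 0.000483). Ppp1r3d had values of −0.0014, 0.080 and 0.30 in S-EtOH and −0.60, −0.11 and 0.14 in S-MP, with both S-MP rats lower at 6 of 7 times, and differed by −0.27 (SE 0.059, adjusted p = 0.00262). Higher were Tpi1, by 0.23 (SE 0.062, adjusted p = 0.0155), Pfkfb2, by 0.17 (SE 0.048, adjusted p = 0.0182), and Pfkp, by 0.17 (SE 0.056, adjusted p = 0.0422), each widest at 8 h, where the differences were 0.58, 0.42 and 0.45. Pfkp lost its call without any 1 of 23 single rats, and Pfkfb2 without the first S-MP rat at 12 h, at an adjusted p of 0.0513. Without the 6 h arrays Tpi1, Pfkfb2 and Pfkp all lost the call (adjusted p = 0.0636, 0.0703 and 0.232, limma), so that no rise was left.

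The count in sham rats depended on the setting, as did the share of all genes. After quantile normalization 13 members passed (5 higher and 8 lower, beside 29.9% of all genes). Array weights gave 11 (24.1% of all genes), only these groups in the fit gave 9 (22.6%), and 2 passed without the 6 h arrays (6.61%). Without the first S-MP rat at 12 h 3 passed. By phase, 1 member passed over 2~6 h beside 1.17% of all genes (0.531% higher and 0.642% lower), Aldoa at −0.29 (SE 0.059, adjusted p = 0.00737). Over 8~12 h, 3 were higher and 0 lower beside 5.11% of all genes (3.5% higher and 1.61% lower). After quantile normalization 10 were higher and 6 lower, beside 24.8% of all genes called. The 3 higher in the main fit were Pfkfb2, at 0.33 (SE 0.091, adjusted p = 0.0317), Tpi1, at 0.43 (SE 0.12, adjusted p = 0.0288), and Gys1, at 0.36 (SE 0.11, adjusted p = 0.0467). Over 24~48 h, 0 passed in limma beside 0.154% of all genes (0.00698% higher and 0.147% lower), with 3 at an unadjusted p under 0.05. After quantile normalization 3 passed (4.83% of all genes), and with array weights 2 did (2.59%). Of the isoform ratios 5 differed in sham rats, all by less than 0.32 on the log2 scale: Pfkfb2 to Pfkfb3 by 0.31, Aldoa to Aldoc by −0.18, Pfkl to Pfkp by −0.16, Pygb to Pygm by −0.13 and Pfkl to Pfkm by −0.13. Their adjusted p-values from the exact permutation test were 0.024, 0.0018, 0.00947, 0.024 and 0.0352, and 2 ratios were left without the 6 h arrays. Leaving out a single rat took the call from Pfkl to Pfkm in 7 cases, from Pfkfb2 to Pfkfb3 in 3 and from Pygb to Pygm in 2. The marker counts that follow stand beside 5.63% of all genes higher and 4.22% lower over 7 times. Erythrocyte markers were lower in S-MP for 3 of 4 (list mean −1.70 to 0.039 in S-EtOH and −2.47 to −0.39 in S-MP), and of the other lists 1 astrocyte, 1 oligodendrocyte and 1 endothelial marker were lower and 1 microglia marker was higher. Their part in these results was not tested.

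The difference between the MP effects in injured and sham rats was tested directly. It passed for 16 members beside 25.7% of all genes (20.2% lower and 5.45% higher), with 15 more negative in injured rats and 1 more positive, Gapdh, at 0.14 (SE 0.041, adjusted p = 0.0126). The largest were those of Slc16a3, at −1.15 (SE 0.15, adjusted p = 1.99e-06), and Tpi1, at −0.66 (SE 0.088, adjusted p = 2.44e-06). For Tpi1 the effects ran in opposite directions, with −0.43 in injured and 0.23 in sham rats, and the latter did not pass without the 6 h arrays. Aldoa, which was lower with MP in both, had a difference between the effects of −0.027 (SE 0.055, adjusted p = 0.746, limma), and after quantile normalization it stood at 0.19 (adjusted p = 0.0211, limma). With the 0 h difference subtracted, 0 of the 31 passed in limma, beside 0% of all genes, and Gapdh and Ldha changed sign, to −0.12 and 0.12. After quantile normalization Pfkl, Pygl, Pygb and Ppp1r3d lost this call and 13 members passed, Aldoa among them, beside 24.7% of all genes. Without the 6 h arrays Slc2a3, Pfkm, Pygb and Pgm1 lost it and 12 passed, beside 23.8% of all genes.

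The study sorts genes into 3 classes at each time by which pairs of groups differ. SEMP holds genes that differ between SCI-MP and both vehicle groups but not between these, CPMP genes that differ between SCI-EtOH and both S-EtOH and SCI-MP but not between the latter, and ICMP genes that differ between S-EtOH and both injured groups but not between the injured groups, in each case without a difference between S-MP and S-EtOH. At 1 or more of 7 times, 8 members fell in SEMP (25.8%, beside 13.1% of all genes), 10 in CPMP (32.3%, beside 18.7%) and 21 in ICMP (67.7%, beside 33.1%). The classes were not run with the 0 h difference subtracted. A shift common to the SCI-EtOH arrays would also give the pattern of CPMP and cannot be told apart from an effect of MP. A member can lie in several classes at different times. Hk2 and Pfkfb3 were in ICMP at every time from 4 h onward, and in no other class. CPMP held Slc16a3 at 4 and 8 h, Ldha at 2 and 4 h, Pygl and Gapdh at 8 h, Tpi1 at 6 h, Ugp2 at 12 h, Pfkl, Tpi1, Pdk1 and Gys1 at 24 h and Pkm at 48 h. SEMP held Pkm at 2 h, Ppp1r3d at 4 h, Aldoc, Pgk1, Pkm and Pgm1 at 6 h, Pfkfb2 and Aldoc at 12 h, Gpi and Aldoa at 24 h, and Gpi, Aldoa and Ppp1r3d at 48 h. Without the first SCI-EtOH rat at 6 h SEMP held 13 members. No share of all genes is given for that setting, so this count cannot be set against the other genes. CPMP held 4 after quantile normalization (7.37% of all genes). By the plain analysis of variance that the methods name, SEMP held 3 (3.06%) and CPMP 2 (3.98%).

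The members were also set beside further genes of the same pathways. After injury 35.1% of all genes were higher and 27.5% lower, and the counts that follow are to be read beside these shares. Of 13 other glycolytic enzymes and regulators, 7 rose and 3 fell after injury. The largest changes were those of Pfkfb4, a further enzyme of the Pfkfb family, by 1.35, the leukocyte hexokinase Hk3 by 0.78, the ADP-dependent glucokinase Adpgk by 0.33, and Tigar, which lowers the activator of phosphofructokinase, by −0.30. Of 16 other glycogen genes 5 rose and 9 fell, led by Pgm2l1 at −1.47, the glycogen-targeting subunit Ppp1r3b at 1.32, the kinase Gsk3b, which restrains glycogen synthase, at −0.57, and Gyg1, the primer on which glycogen starts, at −0.55. Of 11 genes of the pyruvate dehydrogenase complex and its regulators, 8 fell and 1 rose, with Pdhb at −0.66, Pdk2 at −0.65, Dld at −0.59 and Dlat at −0.54. Of 6 other monocarboxylate carriers and partners 3 fell, Mpc1 at −0.54 and Mpc2 at −0.41, which together carry pyruvate into mitochondria, and the carrier Slc16a7 at −0.21. Of 9 other glucose transporters and uptake genes 5 fell and 1 rose, with Slc2a8 at −0.49 as the largest.

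With MP in injured rats, where 31.7% of all genes were lower and 10.4% higher, 6 of the 16 other glycogen genes were lower and 1 higher, with Ppp1r3b at −0.73, Epm2a at −0.33, Gsk3a at −0.30 and Gyg1 higher at 0.33. Of the 11 pyruvate dehydrogenase genes 7 were lower and 0 higher, with Pdp2 at −0.28, Pdhb at −0.23, Pdp1 at −0.22 and Pdk3 at −0.19. Of the 13 other glycolytic genes 2 were lower, Adpgk at −0.42 and Hk3 at −0.34, and 2 higher, Gapdhs at 0.20 and Pklr at 0.14. Of the 6 monocarboxylate genes 3 were lower, among them Bsg, the chaperone that takes MCT1 and MCT4 to the membrane, at −0.32. Of the 9 glucose transport genes 5 were lower and 1 higher, with Slc2a6, a transporter of leukocytes, at −0.48. In sham rats, where 9.85% of all genes were called, MP moved 7 genes of these 5 lists: Pdk4, a kinase of pyruvate dehydrogenase that glucocorticoids are known to induce, was higher by 0.48, Phkb by 0.29 and Slc2a5 by 0.24, and Mpc2 was lower, at −0.36, as were Slc2a8 at −0.21, Slc2a10 at −0.19 and Nhlrc1 at −0.21. All named values passed limma at an adjusted p of 0.05 over all genes.

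At 0 h, directly after the medication, 0 of the 31 members differed between SCI-EtOH and S-EtOH in limma, beside 0.0419% of all genes (0.0279% higher and 0.014% lower), and 3 had an unadjusted p under 0.05. With array weights 2 passed (12.1% of all genes) and with quantile normalization 3 (2.02%). The largest differences were those of Ldha (0.64) and Tpi1 (0.31) upward and of Gapdh (−0.26) and Aldoa (−0.22) downward, with standard errors between 0.077 and 0.19.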

How the data were processed

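The data were taken from Rat Gene 1.0 ST arrays of 60 rats. The authors summarized probes by RMA and, in GeneSpring GX 11, normalized each chip and each gene, so the deposited values are log2 values centred per row. What they were centred on was not given in the sources used here. Without brightness values dim rows could not be removed, and the number of arrays limits the precision. Groups came from the sample titles.

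Rows whose duplicates had a CV under 50% in 16 or more of 30 pairs were kept (27338 of 27342). Of all rows 15097 had 1 symbol in the platform annotation (15067 matched by gene ID), 323 had several and 11922 had none, which gave 14324 genes after averaging rows. A linear model with a mean for each group at each time and moderated variances was fitted to all arrays (limma 3.58.1, R 4.3.3), with Benjamini-Hochberg adjustment over all genes. This fit was used because 2 rats per group and time leave few degrees of freedom to the analysis of variance that the methods name, which was run as an alternative for the classes. Classes came from the moderated F test and Tukey's range. Isoform ratios were tested by exact permutation. Scripts were tested on simulated data. Duplicates differ by rat and also by the sample and array of each rat, so the p-values measure these together. In limma this spread was pooled over all groups and times, and it is not that of the compared rats alone.

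The members, gene lists and motifs were chosen with earlier results of these data known. Every member may be named, and of each further list up to 4 genes with the largest change past the threshold. Alternatives were quantile normalization, array medians set to 0, array weights, no noise filter, the replicate number as a block, only the groups compared, the 0 h difference subtracted, no 6 h arrays, single rows, the plain test, and leaving out each rat. Replicate numbers did not pair the rats. Over 43 comparisons, the deviations of same-numbered rats correlated at −0.57 to 0.43, with a median of 0.0042 and 11 over 0.1.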

Additional observations from a re-analysis of the deposited data

Results flagged for a closer look

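The effect of MP differed between injured and sham rats, by a test of the difference itself, for 16 members beside 25.7% of all genes (limma, adjusted p from 1.99e-06 to 0.0201). In log2 differences, the effect in injured rats was lower than that in sham rats for Slc2a3 (−0.43), Slc16a3 (−1.15), Gpi (−0.36), Pfkl (−0.31), Pfkm (−0.25), Pfkp (−0.41), Pfkfb2 (−0.29), Tpi1 (−0.66), Pkm (−0.28), Ldha (−0.52), Pygl (−0.43), Pygb (−0.25), Gys1 (−0.36), Ppp1r3d (−0.27) and Pgm1 (−0.28), and higher for Gapdh (0.14). Pfkl, Pygl, Pygb and Ppp1r3d did not pass after quantile normalization, Slc2a3, Pfkm, Pygb and Pgm1 did not without the 6 h arrays, and 0 passed with the 0 h difference subtracted.

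The effect of injury differed between 24~48 h and 2~6 h, again by a direct test, for 22 members beside 31.4% of all genes (limma, adjusted p from 1.42e-08 to 0.0265). The later effect was higher for Slc2a3 (0.98), Slc16a3 (1.99), Gpi (0.38), Pfkl (0.79), Aldoa (0.40), Tpi1 (0.57), Pgk1 (0.55), Eno1 (0.54), Pkm (0.58), Ldha (1.50), Pdk1 (0.76), Pygl (1.76), Gbe1 (1.60), Gys1 (0.81) and Ppp1r3d (0.41). It was lower for Pfkm (−1.30), Pfkp (−0.52), Pfkfb2 (−0.62), Aldoc (−1.02), Ldhb (−0.86), Pygb (−0.74) and Pygm (−1.11). After quantile normalization 11 members passed, beside 12.6% of all genes. Slc16a3 (0.38), Pfkl, Tpi1, Pgk1, Eno1, Ldha (0.24), Ldhb, Pdk1 (0.14), Pygb, Pygm and Ppp1r3d then lost the call.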

How the results depend on the processing

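The values hold no brightness over background, so a change of a dim row cannot be told from one of a bright row, and with 2 rats per group and time the tests rest on a variance common to all arrays. On the third principal component the SCI-EtOH arrays, those at 0 h included, lay below all others. Their upper end of −4.02 was close to the lowest sham array, at −3.62. In the main fit 0.0419% of all genes and 0 of the 31 members differed at 0 h. Results that use the SCI-EtOH arrays are bounded by what the 0 h rats allow.

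With the 0 h difference subtracted, members called fell to 12 for injury over 7 times, 2 over 2~6 h and 13 over 8~12 h, and to 0 for MP in injured rats over 7 times, 0 over 2~6 h, 1 over 8~12 h and 0 over 24~48 h, and to 0 for the difference of the MP effects; fewer arrays at 0 h raise every standard error here. Signs turned for Pfkl (−0.010) and Tpi1 (−0.11) after injury, Ldha with MP in injured rats (0.14), and Gapdh (−0.12) and Ldha (0.12) in the difference of the MP effects. The turns with MP hold only if the 0 h difference, taken in rats already injured, was absent from SCI-MP rats. Quantile normalization gave 13 members for MP in sham rats over 7 times, 4 over 2~6 h, 16 over 8~12 h (10 higher and 6 lower) and 3 over 24~48 h, 2 and 3 for MP in injured rats over 8~12 h and 24~48 h, 11 for the change of the injury effect, 3 at 0 h and 4 in CPMP, and for injury over 24~48 h 10 higher and 11 lower. Under it Aldoa turned to 0.19 in the difference of the MP effects, and row 14 of Gapdh alone gave −0.0090 there; the cause was not tested. Array weights gave 11, 2, 13 and 2 for MP in sham rats over 7 times, 2~6 h, 8~12 h and 24~48 h, and 2 at 0 h. Setting array medians to 0 gave 4 for MP in sham rats (2 higher), beside 8.89% of all genes. Only the compared groups gave 25, 16 and 9 for injury, MP in injured and MP in sham rats over 7 times. The shares of all genes were then 56.8%, 28% and 22.6%. Without the 6 h arrays, 2 passed for MP in sham rats and 8 for MP in injured rats over 2~6 h, and 1 and 2 isoform ratios for MP in injured and sham rats. The plain analysis of variance gave 3 in SEMP and 2 in CPMP. The share of all genes called moved with many of these counts. For MP in sham rats over 7 times it was 9.85% in the main fit, 29.9% after quantile normalization and 24.1% with array weights. For MP in injured rats over 7 times it went from 42.1% to 0.0559% with the 0 h difference subtracted.

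Leaving out each rat in turn gave 25 to 29 members for injury over 7 times, 16 to 23 over 2~6 h, 18 to 22 over 8~12 h and 23 to 25 over 24~48 h. For MP in injured rats it gave 19 to 23, 14 to 20, 3 to 6 and 11 to 16, and for MP in sham rats 3 to 6, 1 to 1, 0 to 5 and 0 to 0. It gave 16 to 17 for the difference of the MP effects, 21 to 24 for the change of the injury effect, 0 to 0 at 0 h, 7 to 13 in SEMP, 8 to 12 in CPMP and 20 to 23 in ICMP, and 9 to 10, 1 to 4 and 3 to 7 isoform ratios for injury, MP in injured and MP in sham rats. For MP in sham rats over 8~12 h, 0 passed without the second S-EtOH rat at 8 h, either S-EtOH rat at 12 h or the first S-MP rat at 8 h or 12 h, 1 without the first S-EtOH rat at 8 h, and 5 without either SCI-EtOH rat at 8 h or either SCI-MP rat at 24 h. Of the isoform ratios in sham rats 3 passed without the second S-EtOH or S-MP rat at 24 h. With the replicate number as a block, 28, 21 and 5 members passed over 7 times for injury, MP in injured and MP in sham rats, 4 for MP in sham rats over 8~12 h and 22 in ICMP, and no other count changed. Without the noise filter no call changed. For the runs without a single rat no shares of all genes are given, so their counts cannot be set against the other genes.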

Other observations

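Genes that hypoxia induces outside glycolysis were measured for 20 of 20 listed. After injury 14 were higher and 1 lower, beside 35.1% and 27.5% of all genes, with a median log2 difference of 0.20 beside 0.036 over all genes. The largest were the vasodilator Adm (1.22), the vascular growth factor Vegfa (0.94), the collagen hydroxylase P4ha2 (0.73) and Ddit4, an inhibitor of mTOR (0.58), and the 1 lower was Bnip3 (−0.56), which drives the removal of mitochondria. With MP in injured rats 5 were higher and 7 lower, beside 10.4% and 31.7% of all genes, with Adm higher (0.75) and Egln3, an oxygen sensor that restrains the hypoxia-inducible factors, Vegfa and Ddit4 lower (−0.72, −0.48 and −0.31). In sham rats 3 were higher with MP, beside 5.63% of all genes, namely Ddit4 (0.44), Kdm3a (0.31) and Car12 (0.23).

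In the pentose phosphate pathway, which makes NADPH and ribose from glucose, 5 of 8 genes were higher and 2 lower after injury, with H6pd at 0.57, Rpia at 0.47, Taldo1 at 0.35 and Prps1 at −0.81. With MP in injured rats 2 were higher, Prps1 (0.31) and Rpe (0.18), and 2 lower, Pgls (−0.20) and Rpia (−0.13), and in sham rats 0 of 8 passed in limma. Of 7 genes of gluconeogenesis, 3 were higher and 2 lower after injury, all by less than 0.21 on the log2 scale. With MP in injured rats 5 were lower and 0 higher, with G6pc3 at −0.45 and pyruvate carboxylase Pc at −0.41, and in sham rats 0 of 7 passed. The shares of all genes given for the hypoxia list apply to these lists as well. They were chosen with earlier results of these data known.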
